A study of Saccharomyces cerevisiae with 12 samples.

Results

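Yeast cells that carried spt15-300, a mutant form of the TATA-binding protein gene SPT15, were grown in a medium with 5% ethanol and 60 g/L glucose and set against the same strain in a medium with 0% ethanol and 20 g/L glucose. The members were chosen by array title: replicates 1 and 3 of the mutant with ethanol and all 3 replicates of the mutant without it, 5 of the 12 arrays of the series. The other culture with ethanol, replicate 2, is called an outlier in its title and was left out. Per the labels, the strain is BY4741, a haploid a-type laboratory strain without working HIS3, LEU2, MET17 and URA3, with the plasmid p416-Tefmut2-spt15-300. The p416 vectors are low-copy plasmids with a URA3 marker, and TEFmut2 is a mutated form of the TEF promoter. No change of the chromosomal SPT15 gene is listed, so the cells hold the plasmid copy beside their own. The wild type strain of the series, BY4741 with p416-Tefmut2-SPT15, was grown in the same pair of media, with 3 cultures in each. All cultures grew in synthetic medium without uracil in closed tubes. Ethanol and glucose changed together, so an effect of ethanol and an effect of glucose cannot be told apart. Total RNA was read on Affymetrix Yeast Genome 2.0 arrays, 1 array per culture, and 5449 yeast genes were measured on each. The series' design calls the replicates biological.

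Ethanol makes membranes more permeable, disturbs protein folding and acidifies the cytoplasm, and yeast answers with chaperones, storage carbohydrates, membrane changes and less ribosome building. Glucose acts through its own sensors, which set the transporters that the cell makes and repress genes of respiration and of other carbon sources. The TATA-binding protein sits at the promoters of genes read by all nuclear RNA polymerases, within TFIID or with SAGA, the complex that serves many stress-induced genes. The spt15-300 allele comes from a search for forms of this protein that let yeast grow with more ethanol and glucose, and the comparison asks which transcripts such cells change in that medium.

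Values are log2 signals, and a change is the mean of the 2 arrays with ethanol minus the mean of the 3 arrays without it. Within each of the groups the arrays correlated at 0.995 to 0.999 over all genes, and between the groups at 0.947 to 0.969. The outlier array correlated with the other 5 at 0.761 to 0.789 and had a median level of 9.89, against 10.46 to 10.50 on them. Its S. pombe probe sets, which have no target in these cells, reached 10.78 at their 95th percentile, against 7.14 to 7.36 on the other 5. The 3' probe sets of 8 control genes exceeded their 5' probe sets by a median of 0.4 and 0.379 with ethanol, against 0.266, 0.241 and 0.24 without. This sign of RNA integrity thus moved with the medium, and its part in the changes below was not tested. The 7 markers of a cells were all above background in both media, with mean signals of 8.47 to 13.14 with ethanol and 9.49 to 13.34 without it. The 4 markers of alpha cells read 7.90 to 10.06 with ethanol and 7.65 to 9.90 without, and the 6 markers of sporulating diploid cells read 7.15 to 9.37 and 6.91 to 8.67. None of the alpha markers was below the S. pombe background on every array of a medium, and 1 of the sporulation markers was, without ethanol.

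The ethanol medium moved most of the transcriptome of the spt15-300 strain, mostly by little. By limma with Benjamini-Hochberg adjustment at 0.05, 3404 genes changed (62.5% of all), of which 1841 rose (33.8%) and 1563 fell (28.7%). The median size of a called change was 0.33 on the log2 scale. At least 2-fold changes were rarer, with 124 genes higher (2.28%) and 48 lower (0.881%), against 3.08% and 0.844% of genes in the wild type. The 2 arrays with ethanol lay above all 3 without it for 40.8% of genes and below all 3 for 35.8%. With the outlier array brought back, 744 genes were called, 255 higher and 489 lower. In that fit 81 of the 92 counts of genes that rose or fell per list moved by more than 1.5 times. A list count from another fit is to be set against the totals of that fit, not against the shares of the main fit. Without replicate 3 with ethanol, 2535 were called, against 3404 in all. After its median shift of -0.80 was taken out, the outlier array lay on the same side for 116 of the 124 genes that rose at least 2-fold. It did so for 40 of the 48 that fell as far. Across all 5449 genes, 2724 lay above that shift. Because its S. pombe probe sets also read high, a gene dim without ethanol can lie above the shift without a response. Lists that changed little on the other 2 arrays with ethanol also left the shift, on both sides. The list of TBP, TFIID, SAGA and TBP regulators had a median of -1.25 on the outlier array, against 0.08 and 0.06. That of pyruvate to ethanol and acetate had -0.45, against 0.00 and 0.03. The counts for genes that rose and for genes that fell thus cannot show how far this array agrees.

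**Figure D1:**
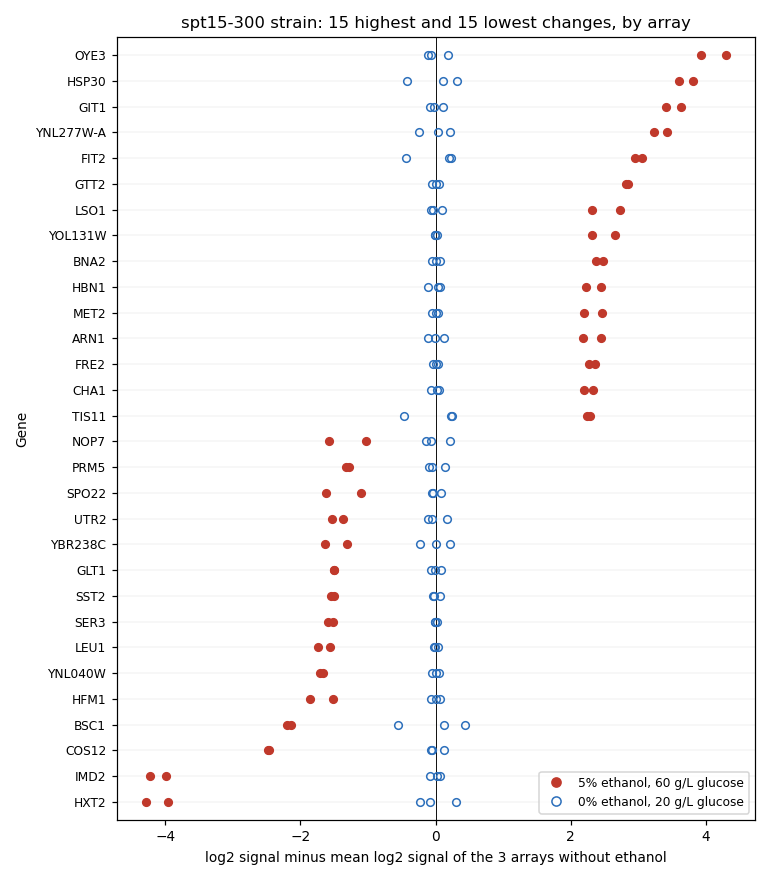
The 15 genes that rose most and the 15 that fell most in the spt15-300 strain, among called genes with no overlap of the arrays between the media. Each point is 1 array, plotted as its log2 signal minus the mean of the 3 arrays without ethanol (x axis), with 2 arrays of the ethanol medium (filled) and 3 arrays without ethanol (open) per gene. OYE3 and HSP30 stand highest, although the arrays of OYE3 without ethanol lie below background, and HXT2 and IMD2 stand about 4 log2 units below 0.

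Among the genes that rose most was HSP30, a plasma membrane protein that restrains the proton pump Pma1. It read 12.37 and 12.58 with ethanol and 8.35, 8.88 and 9.08 without, and rose 13.03-fold, a log2 change of 3.70 (SE 0.21, adjusted p = 7.55e-07). OYE3, an NADPH oxidoreductase of the old yellow enzyme family, read 10.49 and 10.86 with ethanol, against 6.45, 6.74 and 6.49 without. All 3 of its arrays without ethanol lay below the S. pombe background, so the rise is a bound of at least 10.82-fold (adjusted p = 6.23e-07). GIT1, the permease for glycerophosphoinositol, read 11.38 and 11.16 with ethanol, against 7.66, 7.86 and 7.72 without, and rose 11.52-fold (log2 change 3.53, SE 0.08, adjusted p = 1.06e-09). GTT2, a glutathione transferase, had a signal of 11.38 and 11.41 in the ethanol medium and 8.51, 8.61 and 8.56 in the other, a 7.11-fold rise (SE 0.06 on the log2 scale, adjusted p = 1.06e-09). HBN1, which resembles nitroreductases, rose 5.05-fold, to 11.85 and 12.08 with ethanol against 9.52 to 9.70 without. For none of these genes did an array of the ethanol medium come near the range of the others. CHA1, the serine and threonine deaminase of amino acid breakdown, rose 4.79-fold, with 11.32 and 11.18 against 8.92 to 9.04. YNL277W-A, whose systematic name puts it beside MET2 (YNL277W), averaged 10.10 with ethanol (SD 0.13, n = 2) and lay below background without it, at least 7.26-fold higher with ethanol. LSO1, a small protein tied to iron, was at least 1.31-fold higher. YOL131W was below background in both media, so no fold is given for it.

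At the other end stood HXT2, a high-affinity glucose transporter that high glucose is known to shut off. Its signal was 7.73 and 7.40 with ethanol, against 11.99, 11.61 and 11.46 without, a 17.40-fold fall (log2 change -4.12, SE 0.14, adjusted p = 4.16e-08). No array of one medium came near the range of the other. IMD2, an IMP dehydrogenase of GTP synthesis, averaged 5.88 with ethanol (SD 0.16, n = 2), below background, and 9.99 without (SD 0.08, n = 3). It was at least 6.68-fold lower in the ethanol medium (adjusted p = 1.04e-09), and its probe set also matches near-identical copies. COS12, a subtelomeric gene of the COS family, was at least 2.22-fold lower, BSC1 at least 1.69-fold lower and HFM1, a meiotic helicase, at least 2.12-fold lower, all below background with ethanol. SPO22, another meiotic gene, was at least 1.05-fold lower. YNL040W fell 3.21-fold and YBR238C fell 2.78-fold. In all, 27 genes were below background only with ethanol and 50 only without.

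Genes of iron uptake rose in the ethanol medium. Of 27 measured genes of the iron regulon, the set that Aft1 and Aft2 switch on when iron runs short, 21 rose and 0 fell, with a median change of 0.60 against 0.02 over all genes and 33.8% of all genes higher. FIT2, a cell wall mannoprotein that holds siderophore iron, read 13.25 and 13.35 with ethanol, against 9.86, 10.53 and 10.50 without. It rose 8.01-fold (log2 change 3.00, SE 0.20, adjusted p = 1.86e-06), although replicate 1 without ethanol lay below the 2 others. Its relative FIT3 rose 4.63-fold, with 13.41 and 13.37 against 11.14, 11.15 and 11.23. The siderophore transporter ARN1 read 12.60 and 12.33 with ethanol and 10.03, 10.27 and 10.14 without, a 4.97-fold rise. FRE2, a ferric reductase of the cell surface, rose to 10.06 and 9.97, against 7.67, 7.74 and 7.71 without ethanol, also a 4.97-fold rise. TIS11, which speeds the decay of mRNAs of iron-using proteins, rose 4.80-fold, to 12.09 and 12.14 against 9.38, 10.10 and 10.08. Replicate 1 without ethanol was again the lowest array, and the groups did not overlap. Smaller rises came from FTR1, the permease of the high-affinity iron system (1.55-fold), and ISU1, the scaffold on which iron-sulfur clusters form (1.58-fold). The siderophore transporter SIT1 was not called and its arrays overlapped, at 11.46 and 11.29 with ethanol and 11.06 to 11.33 without. Once the outlier array was brought back 9 of the 27 rose and 0 fell, where 255 of all 5449 genes rose and 489 fell.

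Genes of sulfate assimilation and methionine synthesis also rose. This pathway takes up sulfate, reduces it to sulfide and joins it to a carbon chain that Met2 prepares from homoserine. Of 33 measured genes, 27 rose and 4 fell, with a median of 0.46, where 33.8% of all genes rose. MET2 read 11.16 and 11.42 with ethanol, against 8.91, 8.97 and 8.99 without, a 5.04-fold rise (log2 change 2.33, SE 0.08, adjusted p = 4.54e-08). The sulfate permease SUL2 averaged 10.90 with ethanol (SD 0.14, n = 2) and 9.08 without (SD 0.01, n = 3), 3.54-fold higher. MET3, ATP sulfurylase at the first step, rose 2.86-fold, with 12.35 and 12.47 against 10.97, 10.81 and 10.90. For these 3 genes the arrays within a medium lay close together and the media far apart. MET16, the reductase of the activated sulfate, rose 2.12-fold and MHT1, the S-methylmethionine homocysteine methyltransferase, 2.32-fold. MUP3, a low-affinity methionine permease, rose 1.86-fold. STR2, which turns cysteine toward homocysteine, fell by 0.48 on the log2 scale to 10.06 and 9.97 with ethanol, against 10.49 to 10.52 without. MET17, the sulfide-joining enzyme that the strain lacks, was not called, but was called higher with array weights (log2 change 0.38, adjusted p = 0.0388). After the outlier array was brought back 10 of the 33 rose and 1 fell, where 255 of all 5449 genes rose and 489 fell.

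**Figure D2:**
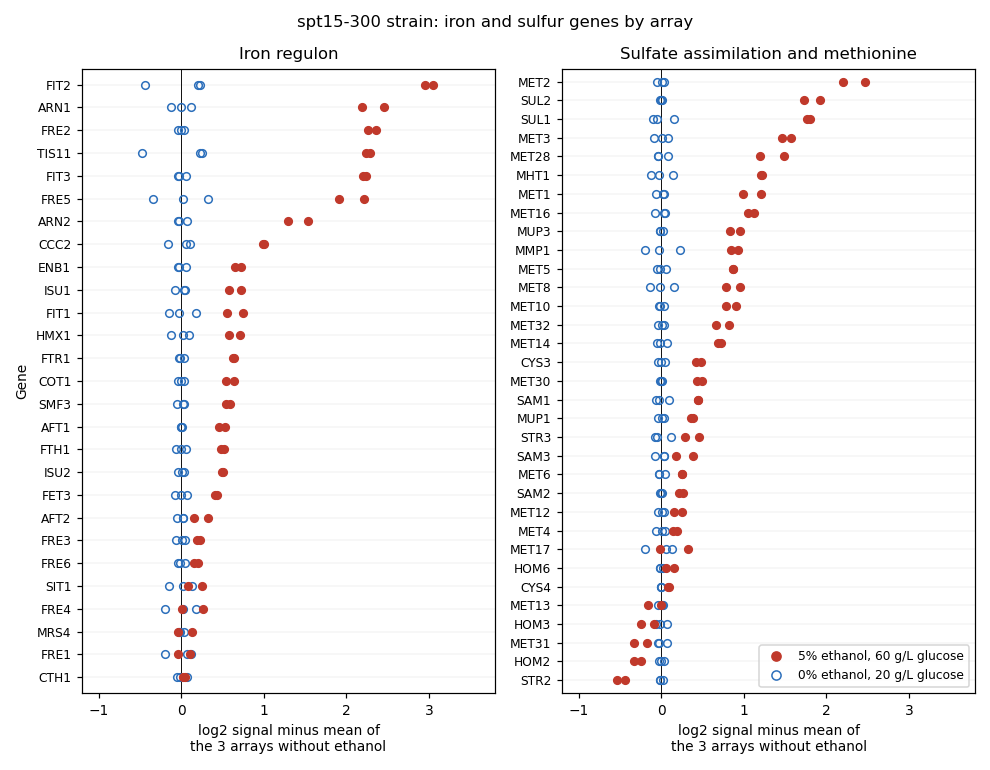
The 27 measured genes of the iron regulon (left) and the 33 of sulfate assimilation and methionine (right) in the spt15-300 strain. Each point is 1 array, given as log2 signal minus the mean of the 3 arrays without ethanol (x axis), filled for the ethanol medium and open for the medium without ethanol. FIT2 and MET2 head the panels, and SIT1 and MET17 are among the genes whose arrays overlap.

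Genes of ribosome building fell. Of 75 measured ribosome assembly factors, nucleolar proteins that cut, fold and carry pre-ribosomal RNA, 70 fell and 0 rose, with a median of -0.64, against 28.7% of all genes lower. The median of the list on each array was -0.46 and -0.79 with ethanol, relative to the mean without ethanol, against 0.14, -0.02 and -0.11 on the arrays without. Replicate 3 with ethanol thus lay lower than replicate 1, and it was the lower one for 73 of the 75 genes. NOP7, a pre-60S assembly factor, read 10.14 and 9.60 with ethanol, against 11.38, 11.10 and 11.03 without, and fell 2.46-fold (log2 change -1.30, SE 0.22, adjusted p = 0.000718). SSF1, which binds the pre-60S particle, fell 2.01-fold and ROK1, an RNA helicase of the small subunit, 2.02-fold. UTP13 of the processome that folds the small subunit's RNA fell 1.60-fold. Without replicate 3 with ethanol 56 of the 75 fell, and with the outlier array brought back 54 fell.

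RNA polymerases I and III, which make ribosomal and transfer RNA, went the same way with 24 of 36 genes lower, 5 higher and a median of -0.42. Among all genes 28.7% were lower and 33.8% higher. RPC34, a subunit of polymerase III, read 9.37 and 9.40 with ethanol and 10.36, 10.25 and 10.18 without, 1.84-fold lower. RPC53 of the same enzyme fell 1.46-fold. The rises included TFC6 (1.32-fold) and TFC8 (1.31-fold), parts of the factor that binds within transfer RNA genes. MAF1, the repressor of polymerase III, fell by 0.16 on the log2 scale. The outlier array, when brought back, left 14 of the 36 lower and 0 higher, where 489 of all 5449 genes fell and 255 rose. Of 128 cytosolic ribosomal protein genes 74 fell and 1 rose, but the size was small, with a median of -0.12. Their median signal was 13.35 with ethanol and 13.47 without, close to the 99th percentile of all genes with ethanol (13.67). RPS14B, with 11.57 and 11.49 against 12.32, 12.28 and 12.24, fell 1.68-fold. RPS22B fell 1.29-fold. The count of ribosomal protein genes that fell was 45 without replicate 3 with ethanol and 4 with the outlier array brought back. Among 66 mitochondrial ribosomal protein genes 26 fell and 10 rose, with a median of -0.07, where 28.7% of all genes fell. The count that fell was 15 without replicate 3 with ethanol and 2 with the outlier array brought back. MRPL7 fell 1.28-fold and MRP20 rose 1.31-fold.

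Amino acid synthesis was lower in part. Of 51 measured targets of Gcn4, the activator of amino acid genes, 27 fell and 10 rose, with a median of -0.17. Over all genes 28.7% fell and 33.8% rose. GCN4 itself read 13.31 and 13.35 with ethanol, against 13.29 to 13.33 without, and was not called. LEU1, isopropylmalate isomerase of leucine synthesis, read 10.79 and 10.98 with ethanol and 12.57, 12.51 and 12.53 without, a 3.14-fold fall (log2 change -1.65, SE 0.08, adjusted p = 2.59e-07). SER3 and SER33 encode the same first enzyme of serine synthesis, and they moved in opposite directions. SER3 fell 2.94-fold, with 10.22 and 10.15 in the ethanol medium against 11.76, 11.73 and 11.74. SER33 rose 1.97-fold, with 11.87 and 11.96 against 10.96, 10.95 and 10.91. In neither case did an array of one medium enter the range of the other. ARG7, ornithine acetyltransferase of arginine synthesis, fell 1.66-fold. In the serine, glycine and one-carbon list 6 of 14 genes rose and 4 fell. AGX1, which makes glycine from glyoxylate, rose 2.14-fold and GCV1, a subunit of the glycine cleavage complex, 1.66-fold.

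Nitrogen genes were mixed, with 13 of 34 measured genes of nitrogen catabolite repression higher and 7 lower, and 4 lower without replicate 1 with ethanol. The share higher was near the 33.8% of all genes, and 28.7% of all genes were lower. GLT1, glutamate synthase, fell 2.84-fold, to 10.03 and 10.02 with ethanol against 11.61, 11.52 and 11.46 without (SE 0.09 on the log2 scale, adjusted p = 1.36e-06). GDH3, a glutamate dehydrogenase, rose 2.60-fold, with 9.25 and 9.36 against 7.84, 8.05 and 7.89. CAR1, arginase, fell 1.74-fold. Of the 16 amino acid permease genes under the SPS sensor 9 rose and 1 fell, and 5 rose without replicate 1 with ethanol. PTR2, a peptide transporter, rose 2.06-fold, and GNP1, a glutamine permease, fell 1.23-fold.

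Genes of NAD and thiamine synthesis rose more often than they fell, where 33.8% of all genes rose and 28.7% fell. Of 13 genes of NAD synthesis 9 rose and 2 fell, with a median of 0.28. BNA2, the dioxygenase that opens the route from tryptophan to NAD, read 11.19 and 11.30 with ethanol, against 8.76, 8.88 and 8.82 without, and rose 5.37-fold (log2 change 2.42, SE 0.05, adjusted p = 1.06e-09). BNA4, a later step of that route, rose 1.81-fold, while BNA7, a formamidase of the same route, fell 1.81-fold. Of 18 thiamine genes 11 rose and 2 fell. THI4, which makes the thiazole ring of the vitamin, rose 3.27-fold, with 9.91 and 9.93 against 8.23, 8.22 and 8.17. PHO3, an acid phosphatase that frees thiamine from its phosphate, fell 1.67-fold.

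Nucleotide synthesis genes moved in both directions. Of 32 measured purine and pyrimidine genes 17 fell and 8 rose, with a median of -0.24, where 28.7% of all genes fell. ADE2, of the de novo purine route, rose 1.60-fold, with 12.75 and 12.76 against 12.14, 12.10 and 12.01, and ADE17 of the same route rose 1.44-fold. APT1, which salvages adenine, fell 1.49-fold. URA1, dihydroorotate dehydrogenase, fell 1.89-fold, to 12.19 and 11.98 against 13.04, 12.99 and 12.96. URA10, the minor orotate phosphoribosyltransferase, rose 1.56-fold.

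Chaperones rose and no heat shock gene fell. Of 28 heat shock proteins and co-chaperones, 22 rose, with a median of 0.44, and for all 28 both arrays with ethanol lay above the 3 without. Over all genes 33.8% rose, and 40.8% had both arrays above. SSA4, a stress-induced Hsp70, read 12.56 and 12.86 with ethanol, against 11.06, 11.40 and 11.44 without, a 2.66-fold rise (log2 change 1.41, SE 0.17, adjusted p = 9.58e-05). HSP26, a small chaperone that holds unfolded proteins, rose 2.14-fold, with 13.73 and 13.82 against 12.49, 12.76 and 12.78. HSF1, the heat shock activator, rose 1.59-fold, and the disaggregase HSP104 1.37-fold. Replicate 1 without ethanol was the lowest of its group for SSA4, HSP26 and HSP104. Without replicate 3 with ethanol 16 of the 28 rose, and with the outlier array brought back 3 rose.

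The general stress genes, which Msn2 and Msn4 activate, rose in part, with 19 of 32 higher, 2 lower and a median of 0.30. Over all genes 33.8% rose and 28.7% fell. GRE1 rose 2.32-fold, with 10.48 and 10.53 against 8.98, 9.49 and 9.39, and SPI1, a cell wall protein of weak-acid defence, 2.08-fold. HSP12, the membrane-stabilising hydrophilin often used to read this response, was not called, at 13.76 and 13.83 with ethanol and 13.59, 13.66 and 13.66 without (log2 change 0.16, SE 0.07, adjusted p = 0.094). It was called, at 0.18, with the replicate number as a block (adjusted p = 0.0491), at 0.16 with only the mutant's arrays (adjusted p = 0.0328) and at 0.16 without replicate 1 of the wild type with ethanol (adjusted p = 0.00933). CRG1, a methyltransferase, fell 1.70-fold. Without replicate 3 with ethanol 11 of the 32 rose, and with the outlier array brought back 4 rose.

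Storage carbohydrate genes rose more often than they fell. Of 11 glycogen genes 8 rose and 1 fell, with a median of 0.57, and of 10 trehalose genes 5 rose and 1 fell, with a median of 0.27, where 33.8% of all genes rose. Without replicate 3 with ethanol 6 glycogen and 3 trehalose genes rose, and with the outlier array brought back 4 and 1. GAC1, which brings phosphatase to glycogen synthase, rose 2.28-fold, with 9.57 and 9.93 against 8.19, 8.74 and 8.75, and the synthase GSY2 rose 1.53-fold. TPS1, trehalose phosphate synthase, rose 1.15-fold, and NTH2, a trehalase, 1.66-fold. The call of TPS1 was lost with the mutant's replicate 1 of the other medium left out (log2 change 0.17, adjusted p = 0.0674) and without replicate 3 with ethanol (0.16, adjusted p = 0.151). PGM1, a phosphoglucomutase, fell 1.53-fold. In the list of glycerol and osmotic genes 6 of 16 rose and 1 fell. GPP2, the glycerol phosphatase of osmotic stress, rose 1.39-fold and GPD1, the dehydrogenase before it, 1.16-fold.

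At the plasma membrane, the proton pump gene PMA1 was not called, with 13.22 and 13.28 in the ethanol medium and 13.18 to 13.25 without. Its minor copy PMA2 rose 1.80-fold, to 10.79 and 10.82 against 9.97, 9.97 and 9.94. YRO2, a membrane protein of the same family as HSP30, rose 1.55-fold. Of the 11 genes in that list 6 rose and 1 fell, where 33.8% of all genes rose.

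Oxidative and thiol defence was mixed, with 12 of 32 genes higher, 6 lower and a median of 0.08, beside the large rises of OYE3 and GTT2. The share higher was near the 33.8% of all genes, and the share lower was under their 28.7%. SRX1, sulfiredoxin, which repairs peroxiredoxins, rose 2.91-fold, with 10.59 and 10.69 against 8.98, 9.18 and 9.15. GSH1, the first enzyme of glutathione synthesis, rose 1.86-fold, with 12.03 on both arrays against 11.16, 11.15 and 11.10. GPX2, a glutathione peroxidase, fell 1.54-fold and GRX4, a glutaredoxin of iron sensing, 1.70-fold. All 5 measured of the 7 listed aryl-alcohol dehydrogenase genes rose, among them AAD6 (1.82-fold). Without replicate 1 with ethanol 4 rose, and with the outlier array brought back 2 rose. AAD4 rose 1.76-fold, read by a probe set that matches near-identical copies. Of 24 pleiotropic drug resistance genes 8 rose and 6 fell, near the shares of all genes. ATR1, a drug exporter, rose 1.60-fold. PDR5, the main multidrug pump, fell 1.59-fold, to 11.73 and 11.71 against 12.42, 12.40 and 12.34, and QDR2 fell 1.61-fold.

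Protein folding and turnover genes rose modestly, where 33.8% of all genes rose and 28.7% fell. In the list of the unfolded protein response 11 of 19 rose and 4 fell, and 6 rose without replicate 3 with ethanol. SIL1 and ERO1, which serve Kar2 and disulfide formation in the endoplasmic reticulum, rose 1.67-fold and 1.53-fold. KAR2 itself rose 1.36-fold. Of 34 proteasome genes 23 rose and 1 fell, with a median of 0.20. UBI4, the stress-induced polyubiquitin gene, rose 1.44-fold, and PRE3, a catalytic subunit of the core particle, 1.31-fold. Of 24 autophagy genes 18 rose and 0 fell, with a median of 0.41. ATG22, an exporter of amino acids from the vacuole, rose 2.24-fold, with 11.53 and 11.50 against 10.27, 10.40 and 10.38. In the fit with the outlier array 0 proteasome genes and 4 autophagy genes rose. The vacuolar proton ATPase list had 2 of 19 higher, 4 lower and a median of 0.02, and its assembly factor VPH2 fell 1.49-fold. Of 27 peroxisome genes 9 rose and 8 fell, near the shares of all genes. They ran from CRC1, the mitochondrial carnitine carrier (2.52-fold higher), to PEX5, the import receptor (1.61-fold lower).

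The other glucose transporters stood apart from HXT2 in size. In the list of 19 measured transporters and sensors 8 rose and 4 fell, against 33.8% and 28.7% of all genes. The median was 0.09, and 4 rose without replicate 1 with ethanol. HXT1, the low-affinity transporter of high glucose, rose 1.26-fold, with 11.94 and 11.63 against 11.61, 11.43 and 11.31, with little space between the groups. Its call was lost with only the mutant's arrays (log2 change 0.33, adjusted p = 0.0618), with the mutant's replicate 3 of the other medium left out (0.26, adjusted p = 0.062) and without replicate 1 with ethanol (0.18, adjusted p = 0.196). HXT3 was not called, with 13.19 and 12.92 against 12.88 to 13.06, but was called with array weights (log2 change 0.18, adjusted p = 0.0224). Without replicate 3 with ethanol the change of HXT3 was 0.23. HXT5, a transporter of slow growth and stress, rose 2.39-fold, with 10.29 and 10.46 against 8.85, 9.26 and 9.24. RGT1, the repressor of transporter genes, rose 1.68-fold and its partner MTH1 1.43-fold. Glycolysis changed little. Of 16 genes 7 rose and 3 fell, with 3 that rose without replicate 3 with ethanol, 3 without replicate 1 and 4 without replicate 2 of the medium without ethanol. Their median signal of 13.86 with ethanol and 13.60 without also lies near that 99th percentile (13.67). GLK1, glucokinase, rose 1.40-fold, while HXK2, the main hexokinase, fell 1.18-fold.

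Of genes on the route from pyruvate to ethanol and acetate, 7 of 18 rose and 3 fell, with a median of 0.04. Over all genes 33.8% rose and 28.7% fell. PDC1, the main pyruvate decarboxylase, read 13.92 and 13.94 with ethanol, against 13.89 to 13.92 without. ADH1, the main alcohol dehydrogenase, read 13.69 and 13.79, against 13.83 to 13.86, and neither it nor ADH2, which oxidises ethanol, was called. ADH1 was called lower without replicate 1 of the wild type with ethanol (-0.10, adjusted p = 0.0442) and with array weights (-0.12, adjusted p = 0.0174). ADH2 was called lower without replicate 3 with ethanol (-0.26, adjusted p = 0.0156), with quantile normalization repeated (-0.27, adjusted p = 0.0185) and with array weights (-0.16, adjusted p = 0.0405), and stood at 0.00 without replicate 1 with ethanol. PDC6, a minor decarboxylase, rose 3.06-fold, with 11.62 and 11.67 against 9.91, 10.05 and 10.13. ADH4 rose 2.07-fold, with arrays far apart in the ethanol medium, at 12.68 and 11.93, against 11.16 to 11.33 without, and its call was lost without replicate 1 with ethanol (log2 change 0.67, adjusted p = 0.0503). On the acetate side ALD4 rose by 0.59 on the log2 scale and ALD5 fell 1.43-fold, both mitochondrial aldehyde dehydrogenases.

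Gluconeogenesis and the glyoxylate cycle, which glucose is known to repress, had 8 of 16 genes higher and 2 lower. Among all genes 33.8% were higher and 28.7% lower. MLS1, malate synthase, read 8.65 and 8.62 with ethanol and lay below background without it, at 6.84 to 6.91, and was at least 2.64-fold higher. ICL1, isocitrate lyase, rose 1.69-fold, while MDH2, the cytosolic malate dehydrogenase, fell 1.84-fold. CIT3 read 8.45 and 8.52 with ethanol, against 7.14, 7.37 and 7.14 without, where 2 of the 3 arrays lay below background, so no fold is given. CIT2 rose 1.98-fold. In the tricarboxylic acid cycle 8 of 16 genes rose, or 5 without replicate 3 with ethanol, and 3 fell, with CIT1, citrate synthase, 1.34-fold higher and ACO1, aconitase, 1.33-fold lower. Of 37 respiratory chain and ATP synthase genes 17 rose and 4 fell, with a median of 0.12. HAP4, the activator of respiration, rose 1.62-fold, with 11.03 and 11.17 against 10.23, 10.42 and 10.55, and HAP1, the haem sensor, rose by 0.59 on the log2 scale. CYC1, cytochrome c, went the other way and fell 1.83-fold, to 11.40 and 11.42 against 12.27, 12.29 and 12.28 (adjusted p = 2.92e-07). The external NADH dehydrogenase NDE1 fell 1.43-fold.

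Genes of sterol and fatty acid synthesis fell more often than they rose. Of 29 ergosterol genes 17 fell and 4 rose, with a median of -0.20, and of 17 fatty acid genes 9 fell and 2 rose, with a median of -0.18, where 28.7% of all genes fell. Without replicate 3 with ethanol 10 ergosterol and 4 fatty acid genes fell, and with the outlier array brought back 2 and 0. ERG11, lanosterol demethylase, fell 1.31-fold, to 12.55 and 12.44 against 12.88 on each of the 3 arrays without ethanol, and ERG7, lanosterol synthase, fell 1.39-fold. ERG3, a desaturase late in the route, rose 1.44-fold. OLE1, the fatty acid desaturase, fell 1.25-fold, with 12.26 and 12.02 against 12.54, 12.45 and 12.40, a call lost without replicate 3 with ethanol (log2 change -0.21, adjusted p = 0.119). ACC1, acetyl-CoA carboxylase, fell 1.21-fold. Of 24 hypoxic and mannoprotein genes 9 rose and 9 fell. FET4, a low-affinity iron transporter, rose 3.05-fold, with 12.57 and 12.58 against 10.78, 11.09 and 11.04. AUS1 and PDR11 are both sterol importers, and they moved apart. AUS1 rose 1.62-fold, while PDR11 fell 1.79-fold. HEM13, of haem synthesis, fell 1.58-fold. INO1, which makes inositol phosphate, rose 2.18-fold, with 10.75 and 10.73 against 9.39, 9.78 and 9.67, within a list of 17 phospholipid genes of which 5 rose and 4 fell.

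Cell wall genes moved in both directions, with 15 of 31 higher and 6 lower, and 3 lower without replicate 1 with ethanol. Among all genes 33.8% were higher and 28.7% lower. UTR2, which links chitin to glucan, fell 2.74-fold, with 10.73 and 10.56 against 12.27, 12.04 and 11.99 (SE 0.12 on the log2 scale, adjusted p = 1.09e-05). PIR3, a wall protein, rose 2.56-fold, and GSC2, the stress-induced glucan synthase, 1.85-fold.

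Mating genes fell in the main. Of 29 a-cell and pheromone response genes 20 fell and 4 rose, with a median of -0.39, where 28.7% of all genes fell. SST2, which switches the pheromone signal off, read 9.34 and 9.39 with ethanol, against 10.96, 10.85 and 10.87 without, a 2.88-fold fall (log2 change -1.53, SE 0.10, adjusted p = 1.55e-06). BAR1, the protease that destroys alpha factor, fell 2.33-fold, and STE2, the alpha factor receptor, fell 2.10-fold, to 11.88 and 11.81 against 12.93, 12.93 and 12.88. FUS1, of cell fusion, fell 2.15-fold, and PRM5 2.47-fold. MFA1, a gene of a-factor itself, fell 1.42-fold. With the outlier array brought back 13 of the 29 fell and 2 rose, where 489 of all 5449 genes fell and 255 rose.

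Cell cycle and replication genes moved little, where 33.8% of all genes rose and 28.7% fell. Of 23 cyclins and regulators 10 rose and 5 fell, and 2 fell without replicate 3 with ethanol. CLN3, the G1 cyclin, rose 1.32-fold, and CLB2, a mitotic cyclin, fell 1.34-fold. Of 32 replication and ribonucleotide reductase genes 12 fell and 4 rose, with 6 that fell without replicate 3 with ethanol and 7 without replicate 1 of the medium without ethanol. RNR2, the small subunit of the reductase, fell 1.34-fold. RNR3, induced by DNA damage, was not called, with a mean of 9.82 with ethanol and 9.88 without, whereas HUG1, another gene of the damage checkpoint, rose 1.77-fold. Of 9 histone genes 0 rose and 1 fell. Among 32 genes of meiosis and sporulation, which haploid cells do not use, 16 rose and 6 fell. In the mutant, 8 of the 32 were below background in both media. SPS100, a spore wall gene, rose 2.99-fold, with 9.66 and 9.70 against 7.90, 8.20 and 8.18. NDT80, the activator of middle meiotic genes, rose 2.01-fold, with 8.70 and 8.62 against 7.47 to 7.79.

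Genes of the transcription machinery around the mutated protein moved by little. Of 38 genes of TBP, TFIID, SAGA and TBP regulators 12 rose and 9 fell, with a median of 0.06. These counts lie near the 33.8% and 28.7% of all genes. SPT15 read 13.31 and 13.28 with ethanol, against 13.43, 13.47 and 13.47 without, and fell 1.12-fold (log2 change -0.16, SE 0.03, adjusted p = 0.00307). Its probe set reads the chromosomal and the plasmid copy alike, and its level lies near the 99th percentile of 13.67. SPT8 of SAGA rose 1.37-fold, BDF1, a TFIID partner, 1.29-fold, and TAF13 of TFIID fell 1.33-fold. URA3, the plasmid's marker, fell 1.13-fold. Of the marker genes that BY4741 lacks in working form, HIS3 read 11.39 and 11.23 with ethanol, against 11.75 to 11.88 without, and fell 1.41-fold. LEU2 rose 4.42-fold, to a mean of 10.21 in the ethanol medium (SD 0.07, n = 2) against 8.07 (SD 0.14, n = 3). What these probe sets read in the strain was not tested.

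The wild type showed most of the same response. In the fit of the 11 arrays 3312 genes changed in the wild type (60.8%), 1730 higher (31.7%) and 1582 lower (29%). The strains share no array, though they share the estimate of spread. In both strains 2638 genes changed in the same direction, 77.5% of the mutant's called genes and 79.6% of the wild type's, and 19 changed in opposite directions. Over the 5449 genes the 2 responses correlated at 0.905, which is a description across genes. Whether the arrays were normalized together is not given in the sources used. Of the 747 genes called in the mutant and not in the wild type, 6 had a called difference between the responses. HSP30 rose by 3.70 in the mutant and 3.65 in the wild type on the log2 scale. HXT2 changed by -4.12 and -3.67.

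**Figure D3:**
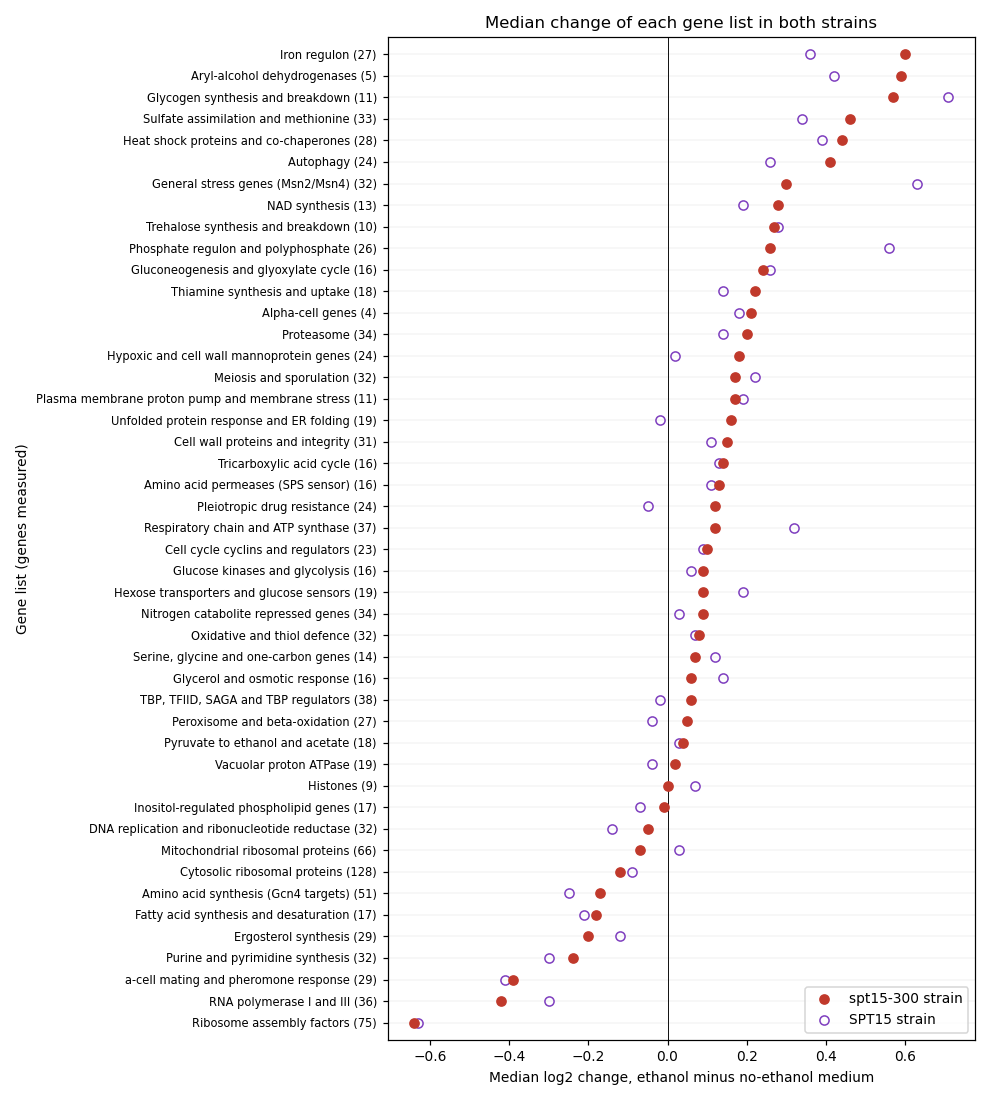
Median log2 change of each of the 46 gene lists between the media, with the number of measured genes in brackets. Filled points are the spt15-300 strain and open points the SPT15 strain, and the x axis runs from lists that fell to lists that rose. Iron, at 0.60 in the mutant and 0.36 in the wild type, and ribosome assembly, at -0.64 and -0.63, form the ends for the mutant.

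The response itself differed between the strains for 66 genes (1.21%), by the interaction term of the same fit. The mutant's response lay above that of the wild type for 21 of them (0.385%) and below it for 45 (0.826%), and 1085 genes had an unadjusted p under 0.05. Of the 45, 31 had positive responses in both strains that were smaller in the mutant. The number depends on single arrays, with 448 genes called without replicate 3 of the wild type with ethanol and 16 without replicate 2 of the mutant without ethanol. Calls of single genes that such fits lose are given beside them, out of 11 fits that each leave out 1 array. With the outlier array brought back, PHO5, PHO84 and PHM6 alone stayed called among all 5449 genes.

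The lowest of these differences, in PHO5, PHO84, PHM6, PHO11, VTC3 and PHM8, belonged to genes of the phosphate regulon, the set that Pho4 switches on when phosphate is short. PHO5, a secreted acid phosphatase, read 11.75 and 11.49 in the mutant with ethanol, against 11.63, 11.71 and 11.67 in the mutant without. In the wild type it read 11.75, 11.57 and 11.54 with ethanol, against 9.14, 9.09 and 9.30 without. The 3 other groups thus stood at a like level and the wild type without ethanol stood below them, so the response was -0.05 in the mutant and 2.44 in the wild type, a difference of -2.50 (SE 0.12, adjusted p = 8.16e-06). PHO84, the high-affinity phosphate transporter, rose by 0.27 in the mutant and 2.49 in the wild type, a difference of -2.22, although the rise in the mutant was not called without replicate 1 with ethanol (0.22, adjusted p = 0.0911). PHM6 rose by 0.73 in the mutant and 2.60 in the wild type, and VTC3, of the polyphosphate polymerase, by 0.40 and 1.51. PHM8 rose by 1.30 and 2.34, and the call of its difference was lost in 8 of the 11 fits. PHO11, whose probe set matches near-identical copies, fell by 0.54 in the mutant and rose by 1.26 in the wild type. PHO8, the vacuolar phosphatase, read 12.34 and 12.36 in the mutant with ethanol, against 11.45 to 11.52 without, and rose by 0.87 there and by 1.41 in the wild type. In the list of 26 phosphate genes 16 rose and 5 fell in the mutant, with a median of 0.26. In the wild type 17 rose and 5 fell, with a median of 0.56. Over all genes 33.8% rose and 28.7% fell in the mutant, and 31.7% rose and 29% fell in the wild type. The difference was called for 11 of the 26, each time below 0, against 0.826% of all genes with a called difference below 0. GIT1 was not among them, with rises of 3.53 and 3.23 (difference 0.30, adjusted p = 0.175).

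**Figure D4:**
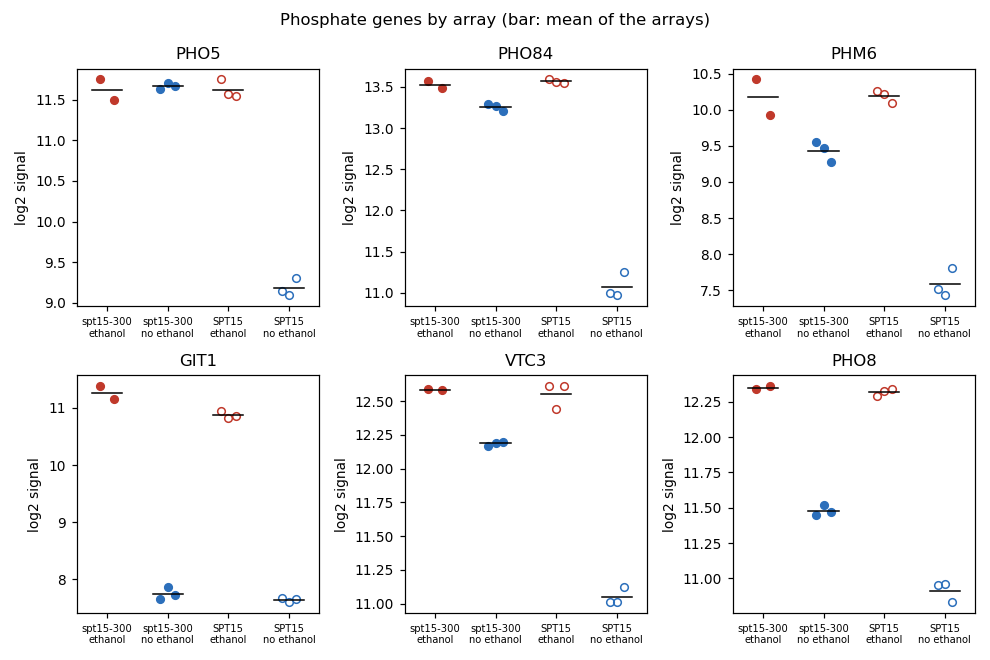
Log2 signal (y axis) of 6 phosphate genes on each array of the 4 groups. Filled points are the spt15-300 strain and open points the SPT15 strain, red with ethanol and blue without, and bars are the means of the arrays. PHO5 lies between 11.49 and 11.75 in 3 of the 4 groups and between 9.09 and 9.30 in the SPT15 strain without ethanol.

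Outside the phosphate genes the called differences were smaller than those of PHO5, PHO84, PHM6, PHO11, VTC3 and PHM8. Several still exceeded that of PHO8 (-0.54) in size. COS12 was among the called genes, but it lay below background with ethanol in both strains. Its response in the mutant is thus only a bound, and the difference of the responses was not measured. NQM1, a stress-induced transaldolase, rose by 0.67 in the mutant and 1.54 in the wild type, and HSP26 by 1.10 and 1.95, differences of -0.87 and -0.85 whose calls were each lost in 7 of the 11 fits. GCV1 rose by 0.73 and 1.49, with a difference of -0.75 (adjusted p = 0.00024). CYC1 fell by 0.87 in the mutant and by 0.38 in the wild type, with a difference of -0.49. In the respiratory list 5 of the 37 genes had called differences, all below 0, against 0.826% of all genes with one below 0. The median response of that list was 0.12 in the mutant and 0.32 in the wild type. In the other direction, GTT2 rose by 2.83 in the mutant and 2.14 in the wild type, a difference of 0.69 (SE 0.08, adjusted p = 0.00292). AUS1 rose by 0.69 in the mutant and was not called in the wild type (-0.10), a difference of 0.80 (adjusted p = 0.0339) whose call was lost in 6 of the 11 fits. PMA2 rose by 0.85 and 0.28, and the call of its difference of 0.57 was lost in 9 of the 11 fits and with the replicate number as a block (0.55, adjusted p = 0.065). The quinone reductase-like YLR460C and its relative YCR102C rose by 1.21 and 1.06 in the mutant, against 0.45 and 0.39 in the wild type. AGA1, the anchor of the a-agglutinin, changed by -1.10 in the mutant and -1.77 in the wild type, a difference of 0.67 whose call was lost in 7 of the 11 fits.

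**Figure D5:**
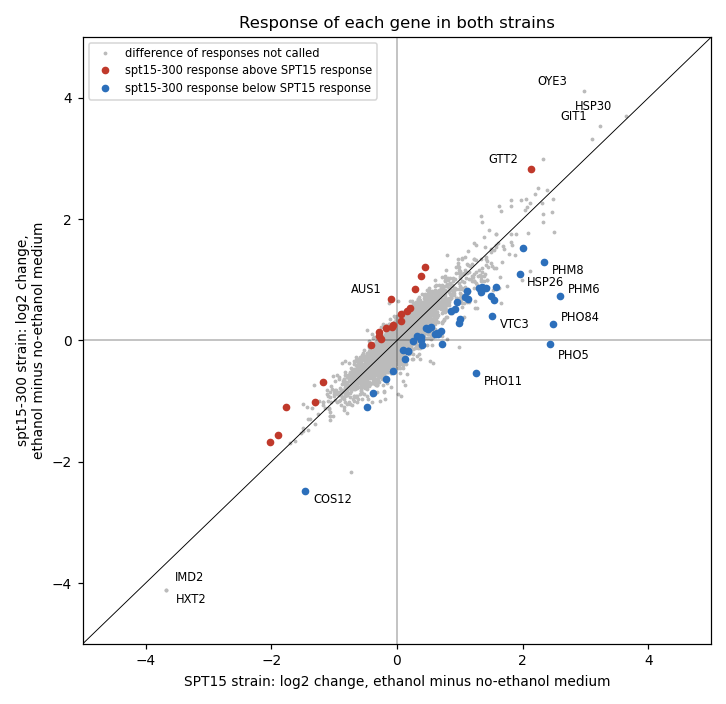
Log2 change between the media of each of the 5449 genes in the spt15-300 strain (y axis) and the SPT15 strain (x axis), with the line of equal change. Coloured points are the 66 genes whose responses differed, red where the mutant's lies above (21) and blue where it lies below (45). PHO5, PHO84 and PHM6 lie far to the right of the line at low mutant values, while HSP30, GIT1 and HXT2 lie near it.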

How the data were processed

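The deposited values are linear intensity summaries per probe set, made with RMA per the submitters' processing notes. The sources used here give neither its version nor its settings. Their log2 was used without further scaling. Probe sets with 1 S. cerevisiae gene were kept (5498 of 10928), and of several probe sets of a gene the brightest, which left 5449 genes, 118 of them read by a probe set shared with a near-identical gene. Groups came from the array titles. R 4.3.3 and limma 3.58.1 (lmFit, eBayes) fitted the 4 groups over 11 arrays with Benjamini-Hochberg adjustment over all genes, with 7 residual degrees of freedom, tested on simulated data with 200 changed genes. A gene was called below background where every array of a group was at or below the 95th percentile of that array's S. pombe probe sets. A bound sets the brighter group's mean against that percentile or the gene's own signal, whichever was higher. The number of arrays limits the precision. Named genes are the 15 highest and lowest changes, up to 6 members of each list by p, those by the interaction, and a fixed set. Members and lists were chosen with earlier results of these data known. Alternatives were the outlier array, array weights, scaling, filters, variance settings, a replicate block and leaving out each array.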

Additional observations from a re-analysis of the deposited data

Results flagged for a closer look

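The response to the ethanol medium differed between the spt15-300 strain and the SPT15 strain for 66 of 5449 genes, by a test of the difference itself (the interaction term of limma at an adjusted p of 0.05). The mutant's response was above that of the wild type for 21 and below it for 45, and 7 differed by at least 1 on the log2 scale.

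Among phosphate genes the mutant's response minus that of the wild type, on the log2 scale, was -2.50 for PHO5, -2.22 for PHO84, -1.87 for PHM6, -1.80 for PHO11, -1.11 for VTC3, -1.04 for PHM8 and -0.54 for PHO8. Outside them it was -0.87 for NQM1, -0.85 for HSP26, -0.75 for GCV1 and -0.49 for CYC1. It was above 0 for AUS1 (0.80), YLR460C (0.76), GTT2 (0.69), YCR102C (0.67), AGA1 (0.67) and PMA2 (0.57). COS12 passed the test at -1.02, but lay below background with ethanol in both strains, so this is no measured difference. The calls of PMA2, PHM8, AGA1, HSP26, NQM1 and AUS1 were lost in 9, 8, 7, 7, 7 and 6 of the 11 fits that leave out 1 array, and those of the other 12 genes named here in none. With the outlier array brought back 15 of these 18 differences were no longer called, all but PHO5, PHO84 and PHM6.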

How the results depend on the processing

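With the outlier array brought back the called genes numbered 744 in the mutant, 408 in the wild type and 3 for the difference between the responses, and 34.3% of the mutant's were higher, against 54.1% without that array. The median change of all genes was then -0.25, and changes are best read relative to it. Array weights, which gave the outlier a weight of 0.00412, called 3635 genes in the mutant and 486 differences. Deviations of same-numbered arrays correlated at 0.63 and 0.48 in the mutant and at 0.10, -0.14 and -0.17 in the wild type. Those of other-numbered arrays ranged from -0.63 to 0.48 in the mutant and from -0.39 to 0.36 in the wild type. The deviations of the 2 mutant arrays with ethanol mirror each other, so these values cannot settle whether the numbers pair the samples. With a replicate block 3503, 3457 and 46 genes were called. The block called HSP12 in the mutant and lost the difference of PMA2, and changed no other call of a named gene. Leaving out each array in turn gave 2535 to 3484 genes for the mutant, 2932 to 3339 for the wild type and 16 to 448 for the difference. The difference fell to 17 and 20 without replicates 1 and 2 of the wild type control, to 16 and 22 without replicates 2 and 3 of the mutant control and to 23 without replicate 3 of the mutant with ethanol, and rose to 448 without replicate 3 of the wild type with ethanol. Without the lowest 25% of genes 2632 changed in the mutant, and 14 of the 30 genes with the most extreme changes were not tested. The settings not named so far gave 3295 to 3429 genes for the mutant.

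Of the 162 named genes called in the mutant 70 were no longer called with the outlier array brought back, and signs turned for a few small changes. With the outlier array brought back they were -0.33 for MRP20, -0.35 for GCN4, -0.18 for HSP12, -0.18 for TPS1, -0.09 for PMA1, -0.11 for HXT3, -0.00 for PDC1, 0.31 for ADH2, -0.12 for CLN3 and 0.42 for RNR3, none of them called. Array weights gave -0.01 for GCN4, -0.00 for PMA1 and 0.05 for RNR3, and repeated quantile normalization -0.07 for MET17 and -0.01 for PDC1. Leaving out an array gave -0.01 to 0.32 for MET17, -0.00 to 0.04 for GCN4, -0.04 to 0.23 for HXT3, -0.26 to 0.00 for ADH2, -0.15 to 0.02 for RNR3 and -0.19 to 0.08 for PHO5. The cause was not tested.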

Other observations

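Of the 172 genes that changed at least 2-fold in the spt15-300 strain, 105 are in none of the 46 lists. The genes named here were chosen from them after their values were seen. SEO1, a permease-like membrane protein, read 9.44 and 9.45 with ethanol, against 7.29, 7.25 and 7.19 without, where 2 of the 3 arrays lay below background, and was called higher by limma (adjusted p = 1.04e-09). YML131W, which resembles medium-chain dehydrogenases, rose 4.43-fold, with 12.19 and 12.33 against 10.09, 10.11 and 10.14. REG2, a regulatory subunit of the phosphatase that acts in glucose repression, rose 4.25-fold, and NRG1, a repressor of glucose-repressed genes, 2.47-fold. YCT1, a cysteine transporter, rose 2.40-fold. JLP1, which frees sulfite from sulfonates, was at least 1.79-fold higher and below background without ethanol.

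Among those that fell were LOC1 (2.37-fold), RIX1 (2.19-fold) and LTV1 (2.16-fold), which serve ribosome assembly or export and stand outside the list of assembly factors. AAH1, adenine deaminase, fell 2.13-fold. For these 4 genes replicate 3 with ethanol lay below replicate 1, as for most of the listed assembly factors. LTV1, for example, read 9.97 and 9.32 with ethanol, against 10.96, 10.69 and 10.62 without.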
